A study of Mus musculus with 8 samples.

Results

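Transcripts of the TGF-beta ligands *Tgfb1*, *Tgfb2* and *Tgfb3*, the signaling receptors *Tgfbr1* and *Tgfbr2*, the latent TGF-beta binding proteins *Ltbp1*, *Ltbp2*, *Ltbp3* and *Ltbp4*, and the TGF-beta induced matrix protein *Tgfbi* were compared between dystrophic and normal muscle. These genes were found by their symbols in the deposited table, where they are 10 of 55401 genes. All 10 reached the minimum for testing, a normalized count averaging at least 10 over the muscles, which 13677 genes met. *Ltbp2* averaged 8.67 in WT and 94.0 in *mdx5cv* muscles, so it met this minimum only through the *mdx5cv* muscles. The same holds for other tested genes that averaged under 10 in WT. A normalized count is the number of reads of a gene divided by the size factor of the library.

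Bulk RNA-seq was done on whole tibialis anterior (TA) muscles, 4 wild type (WT) and 4 *mdx5cv*, of male 6-mo-old mice of the C57/Bl6 strain. The *mdx5cv* mouse carries a mutation in *Dmd*, the dystrophin gene, and is a model of Duchenne muscular dystrophy on the same strain background. RNA was isolated with Trizol, and the libraries were stranded and made from total RNA. The labels number the replicates 1 to 4 in each genotype without identifying the animals, so p-values measure the spread between these samples.

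TGF-beta is secreted as an inactive complex in which the cytokine stays bound to its own propeptide, and most latent TGF-beta binding proteins tether that complex to fibrillin microfibrils of the extracellular matrix. Integrins, proteases and thrombospondin 1 can release the active cytokine, which binds a type II receptor that recruits and phosphorylates a type I receptor, and Smad proteins then carry the signal to the nucleus. In skeletal muscle TGF-beta is known for driving matrix deposition and for restraining the differentiation of muscle precursors, and *Ltbp4* is a known modifier gene of muscular dystrophy in mice.

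The region just upstream of the transcript start is shown for the 3 genes that changed the most, *Tgfb1*, *Tgfbi* and *Ltbp2*, and for *Tgfb2*, a ligand that did not pass the test. The sequences are from RefSeq on GRCm38.p6 and are written 5′ to 3′ on the strand of the gene. They cover chr7:25686752-25687001 on the plus strand for *Tgfb1*, chr1:186705990-186706239 on the minus strand for *Tgfb2*, chr13:56609336-56609522 on the plus strand for *Tgfbi* and chr12:84876533-84876741 on the minus strand for *Ltbp2*. Each run stops before the first annotated transcribed base of GENCODE M21 or RefSeq, so no transcribed sequence is included. Capitals mark matches, on either strand, to the motifs searched, which were AP-1 (TGANTCA), the GC box (GGGCGG), a Smad-binding core (CAGAC), the MyoD E-box (CAGCTG), the TATA box (TATAAA) and a CRE core (TGACG). No motif contains another.
Tgfb1: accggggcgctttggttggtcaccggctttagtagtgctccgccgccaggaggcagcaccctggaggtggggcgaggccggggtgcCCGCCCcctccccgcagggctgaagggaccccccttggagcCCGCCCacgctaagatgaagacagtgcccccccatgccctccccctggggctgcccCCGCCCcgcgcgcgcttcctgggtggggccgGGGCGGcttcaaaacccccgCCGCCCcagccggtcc
Tgfb2: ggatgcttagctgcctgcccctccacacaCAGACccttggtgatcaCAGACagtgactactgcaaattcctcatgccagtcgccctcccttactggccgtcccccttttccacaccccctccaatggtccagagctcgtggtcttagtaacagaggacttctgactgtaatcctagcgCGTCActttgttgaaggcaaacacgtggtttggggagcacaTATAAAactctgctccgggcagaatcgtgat
Tgfbi: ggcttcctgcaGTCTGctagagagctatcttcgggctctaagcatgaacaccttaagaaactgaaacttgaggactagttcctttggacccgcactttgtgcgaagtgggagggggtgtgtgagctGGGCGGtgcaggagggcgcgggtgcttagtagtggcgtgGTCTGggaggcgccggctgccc
Ltbp2: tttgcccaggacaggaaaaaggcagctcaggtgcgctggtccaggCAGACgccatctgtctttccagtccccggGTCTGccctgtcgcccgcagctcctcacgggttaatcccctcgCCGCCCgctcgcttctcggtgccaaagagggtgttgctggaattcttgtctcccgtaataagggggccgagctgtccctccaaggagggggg

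The upstream sequences of *Tgfb1* and *Tgfb2* differed in their letters. The *Tgfb1* window, 300 bases from 250 before to 50 after the RefSeq start, had a GC content of 77.0% and 6 GC boxes, with no match to the other motifs searched. The *Tgfb2* window had a GC content of 54.3% and no GC box, and it held a TATA box at position -31 from the start, a CRE core at position -72 and 2 Smad-binding cores. The *Tgfbi* window held 2 GC boxes and 2 Smad-binding cores, and the *Ltbp2* window held 2 GC boxes and 3 Smad-binding cores. Among 32817 such windows of mouse genes, 35.6% held a GC box, 49.6% a Smad-binding core, 13.6% a TATA box, 20.8% a CRE core, 16.3% a MyoD E-box and 7.81% an AP-1 motif. RefSeq windows were used for 9 of the 10 genes, 13 windows in all, and *Tgfb3* had none. Within them the AP-1 motif was found in *Ltbp3* and the MyoD E-box in *Tgfbr2*, 1 match each. These matches describe the letters of the windows and do not show that a factor binds there.

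Undoing the division by the size factors gave 13175524 to 14921057 reads for each library, and the 10 genes together received 2581 to 2977 reads in WT muscles and 4089 to 6410 in *mdx5cv* muscles. The mutated gene *Dmd* had normalized counts of 6169 to 8155 in WT and 3461 to 4400 in *mdx5cv*, and it fell with a log2 fold change of -0.81 (SE 0.12, adjusted p = 1.77e-04). Markers of mature fast fibers were abundant in every muscle, with summed normalized counts of 737622 to 1276491. The library of *mdx5cv* replicate 4 had the most extreme value of its group in several marker sums. Its summed normalized count was 10061 for 9 macrophage markers, against at most 5588 in the other *mdx5cv* muscles, and 9132 for 7 markers of regenerating fibers, against at most 5336. It also had the lowest sum of mature fast fiber markers.

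Of the 10 genes, 6 rose in *mdx5cv* muscle and none fell, where a gene is said to rise or fall if its adjusted p was under 0.05 in limma, with Benjamini-Hochberg adjustment over the 13677 genes tested. Of the genes tested, 20.9% rose and 20.1% fell by the same rule. In whole muscle, more cells of a type and more RNA per cell cannot be told apart. The stricter threshold of the study also asks for a log2 fold change of 1 or more in size. By it, 3 of the 10 genes were higher in *mdx5cv*, namely *Ltbp2*, *Tgfb1* and *Tgfbi*, and 0 were lower, against 10.3% of genes tested that were higher and 3.27% that were lower. Without *mdx5cv* replicate 4, 5 genes rose and the same 3 were past the stricter threshold. The groups did not overlap in 6 of the 10 genes and in 40.1% of genes tested. The median log2 fold change was 0.43 for the 10 genes and 0.00 for the genes tested. The highest *mdx5cv* muscle was replicate 4 for 8 of the 10 genes.

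**Figure D1:**
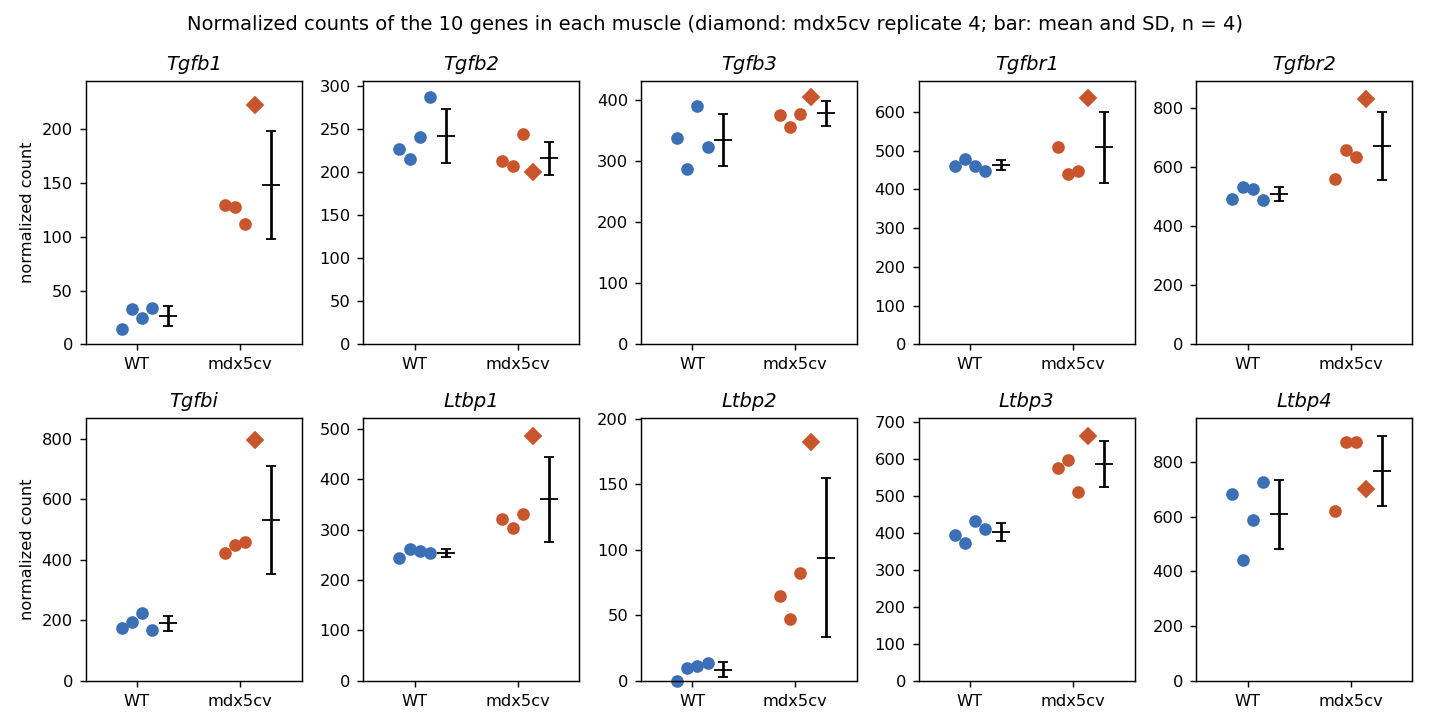
Normalized counts (y axis, from 0, a separate scale for each gene) of the 10 genes in the 4 WT and 4 *mdx5cv* muscles; each point is a muscle, diamonds are *mdx5cv* replicate 4, and bars are the mean and SD. *Tgfb1*, *Tgfbi* and *Ltbp2* have every *mdx5cv* muscle far above the WT muscles, whereas *Tgfb2* and *Ltbp4* overlap between the groups.

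Among the ligands, *Tgfb1* rose, while *Tgfb2* and *Tgfb3* did not pass the test. *Tgfb1*, which encodes the isoform best known in inflammation and fibrosis, spans chr7:25687002-25705077 on the plus strand. Its normalized counts were 13.8, 32.9, 24.3 and 33.9 in WT replicates 1 to 4 and 130, 128, 112 and 223 in *mdx5cv* replicates 1 to 4. Every *mdx5cv* muscle was above every WT muscle, replicate 4 was the highest, and replicate 1 was the lowest of the WT muscles. The mean went from 26.2 ± 9.36 to 148 ± 50.5 (SD, n = 4 each), a ratio of 5.65, and the log2 fold change was 2.48 (SE 0.28, 95% interval 1.87 to 3.09, adjusted p = 2.48e-05). The WT values rest on 12 to 32 reads a muscle and the *mdx5cv* values on 124 to 279. Without *mdx5cv* replicate 4 the log2 fold change was 2.27. The summed macrophage markers also separated the groups, at 566 to 840 in WT and 4204 to 10061 in *mdx5cv*. So did the sums for regenerating fibers, T lymphocytes and platelets, which were higher in *mdx5cv*. Sums for endothelial cells and for smooth muscle and pericytes separated them as well, but were lower. The part of these cell types in the change of *Tgfb1* was not tested.

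*Tgfb2*, the ligand that depends on the co-receptor betaglycan for efficient receptor binding, lies at chr1:186622792-186705989 on the minus strand, downstream of the sequence with the TATA box. Its normalized counts were 227, 215, 241 and 287 in WT and 213, 207, 244 and 200 in *mdx5cv*. The groups overlapped, and *mdx5cv* replicate 4, high in most of the other genes, was the lowest of the 8 muscles. The log2 fold change was -0.16 (95% interval -0.43 to 0.10, adjusted p = 0.315). Its direction depended on the scaling, since it was 0.19 when each muscle was scaled to the same total, a scaling that moved the median of the genes tested to 0.36. *Tgfb3*, at chr12:86056745-86079041 on the minus strand, had normalized counts of 337, 287, 389 and 322 in WT and 375, 355, 376 and 404 in *mdx5cv*. The groups overlapped here too, with WT replicate 3 above 3 of the *mdx5cv* muscles. The log2 fold change of *Tgfb3* was 0.18 (95% interval -0.06 to 0.43, adjusted p = 0.215). *Tgfb3* passed the test with equal totals (0.54, adjusted p = 0.00827) and with mitochondrial genes also left out (0.39, adjusted p = 0.0281).

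The shares of *Tgfb1* and *Tgfb2* among the ligand transcripts did not overlap between the genotypes. Levels of different genes were compared as normalized counts per kilobase of merged GENCODE M21 exons. Merged exons join those of all transcripts annotated for a gene, 5042 bases for *Tgfb1*, 5791 for *Tgfb2* and 3383 for *Tgfb3*. Ranks and shares between genes depend on these lengths, and which transcripts these muscles make was not examined. *Tgfb3* had the largest share of the ligand sum in each muscle, in WT 67.6% ± 3.92 and in *mdx5cv* 62.7% ± 1.63 (SD, n = 4). That of *Tgfb1* was 1.93%, 5.08%, 2.99% and 4.44% in WT and 14.8%, 15.3%, 12.6% and 22.3% in *mdx5cv*. The groups did not overlap, and the mean share of *Tgfb1* went from 3.61% ± 1.42 to 16.3% ± 4.19 (SD, n = 4). The share of *Tgfb2* was 25.8% to 32.7% in WT and 17.4% to 24.0% in *mdx5cv*, again without overlap. A share within a muscle does not depend on how the library was scaled, but a larger share of 1 ligand makes the others smaller. These shares were not tested.

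**Figure D2:**
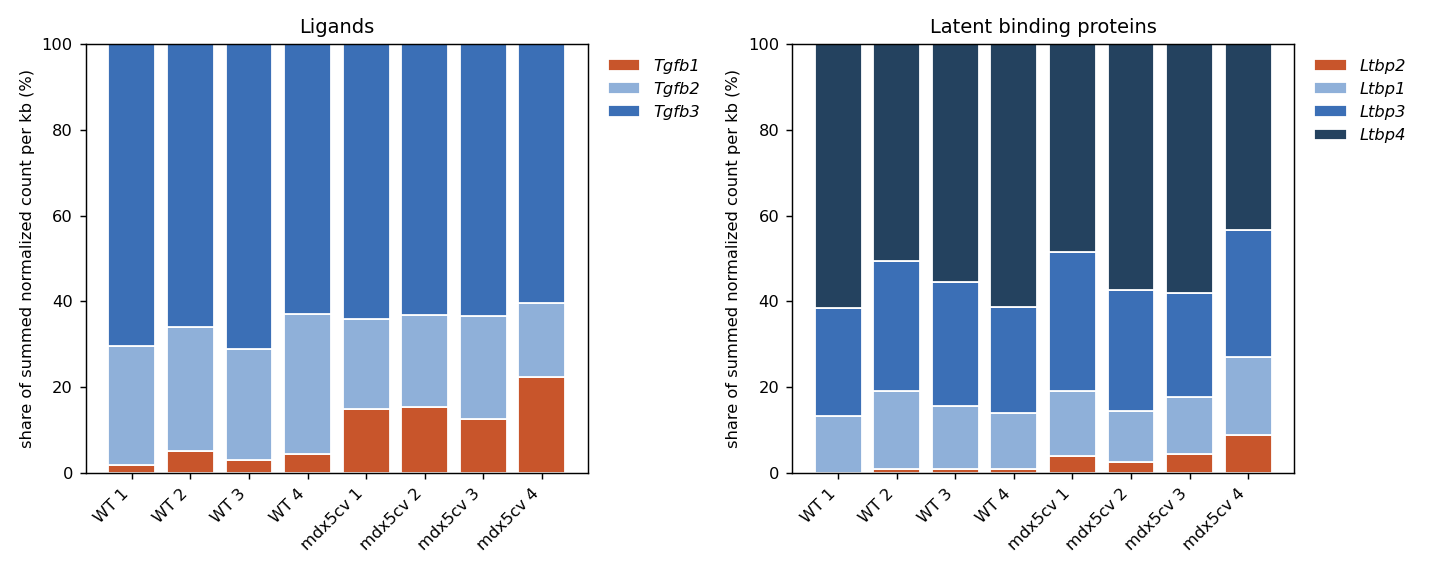
Shares (%) of the summed normalized count per kilobase taken by each ligand (left) and each latent TGF-beta binding protein (right) in each of the 8 muscles. *Tgfb1* takes 12.6% to 22.3% of the ligand sum in the *mdx5cv* muscles and 1.93% to 5.08% in the WT muscles, and *Ltbp2* takes at most 0.921% in WT and 2.46% to 8.95% in *mdx5cv*.

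Of the receptors, *Tgfbr2* rose and *Tgfbr1* did not pass the test. *Tgfbr1*, the type I receptor kinase that phosphorylates Smad2 and Smad3, lies at chr4:47353222-47414931 on the plus strand. It had normalized counts of 460, 480, 461 and 449 in WT and 510, 441, 447 and 637 in *mdx5cv*. The lowest *mdx5cv* muscles lay below the WT muscles, and replicate 4 lay well above them. The log2 fold change was 0.12 (95% interval -0.14 to 0.38, adjusted p = 0.458), and it was 0.01 without *mdx5cv* replicate 4. *Tgfbr1* passed the test with equal totals (0.48, adjusted p = 0.0280) but not with mitochondrial genes also left out (0.33, adjusted p = 0.0983).

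*Tgfbr2*, the type II receptor that binds the ligand first, lies at chr9:116084293-116175360 on the minus strand. It had normalized counts of 491, 535, 528 and 490 in WT and 559, 658, 636 and 833 in *mdx5cv*. The groups did not overlap, and the mean went from 511 ± 24.1 to 671 ± 116 (SD, n = 4). *Tgfbr2* rose with a log2 fold change of 0.38 (SE 0.12, 95% interval 0.12 to 0.64, adjusted p = 0.0236). The call was lost without *mdx5cv* replicate 4 (log2 fold change 0.27, adjusted p = 0.0546), without WT replicate 1 (adjusted p = 0.0623) and without a variance trend (adjusted p = 0.0549), and the adjusted p ran from 0.00163 to 0.0623 over the alternatives. The difference between the changes of the receptors was not tested.

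Of the 4 latent TGF-beta binding proteins 3 rose, *Ltbp2* by far the most. *Ltbp2* encodes a microfibril-associated member of the family that, unlike the others, does not bind latent TGF-beta. The gene lies at chr12:84783212-84876532 on the minus strand. Its normalized counts were 0, 9.87, 11.1 and 13.8 in WT and 64.9, 47.2, 81.9 and 182 in *mdx5cv*. It was at or close to the detection limit in WT, with 0 to 13 reads a muscle, and every *mdx5cv* muscle was above every WT muscle with 50 to 228 reads. The ratio of means was 10.8, from 8.67 ± 6.01 to 94.0 ± 60.5 (SD, n = 4), and the log2 fold change was 3.65 (SE 0.71, 95% interval 2.13 to 5.18, adjusted p = 0.00125). WT replicate 1, with no read, weighed on this value. The log2 fold change was 2.74 without that muscle and 3.27 without *mdx5cv* replicate 4, and it ran from 2.39 with a pseudocount of 10 to 4.55 with a pseudocount of 0.1. In tests on recovered reads it was 3.42 (edgeR) and 3.44 (DESeq2), below the main value.

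*Ltbp1*, which tethers the latent complex to the matrix, lies at chr17:75005568-75392512 on the plus strand. Normalized counts of *Ltbp1* were 243, 261, 258 and 253 in WT and 321, 303, 332 and 485 in *mdx5cv*. The WT muscles were tightly grouped, with a coefficient of variation of 3.10%, and lay below every *mdx5cv* muscle. *Ltbp1* rose with a log2 fold change of 0.48 (SE 0.14, 95% interval 0.17 to 0.78, adjusted p = 0.0157), which was 0.33 without *mdx5cv* replicate 4.

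*Ltbp3*, which also carries latent TGF-beta, lies at chr19:5740904-5758532 on the plus strand. Normalized counts of this gene were 393, 373, 431 and 411 in WT and 575, 596, 511 and 662 in *mdx5cv*. These groups did not overlap, and replicate 4 was only 1.18 times the mean of the other *mdx5cv* muscles. *Ltbp3* rose with a log2 fold change of 0.54 (SE 0.11, 95% interval 0.31 to 0.77, adjusted p = 0.00148).

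*Ltbp4*, the modifier gene of mouse muscular dystrophy, lies at chr7:27305136-27337692 on the minus strand. Its normalized counts were 682, 441, 588 and 725 in WT and 619, 872, 871 and 699 in *mdx5cv*. The groups overlapped and the spread was wide in both, with coefficients of variation of 20.6% in WT and 16.6% in *mdx5cv*. The log2 fold change was 0.34 (95% interval -0.01 to 0.69, adjusted p = 0.109). *Ltbp4* passed the test with equal totals (0.70, adjusted p = 0.00362) and with mitochondrial genes also left out (0.55, adjusted p = 0.0131). These scalings moved the median of the genes tested to 0.36 and 0.22.

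*Ltbp4* made up the largest share of the summed latent binding protein transcripts per kilobase in each muscle, in WT 57.2% ± 5.25 and in *mdx5cv* 51.9% ± 7.09 (SD, n = 4). *Ltbp3* followed with 27.4% ± 2.79 and 28.5% ± 3.29, and *Ltbp1* with 14.7% ± 2.36 and 14.7% ± 2.67. *Ltbp2* had the smallest share in both genotypes, 0.659% ± 0.442 and 4.93% ± 2.80, and it was the member whose share did not overlap between them. The sum over the family was 163 ± 20.4 per kilobase in WT and 228 ± 22.0 in *mdx5cv*, also without overlap.

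*Tgfbi* encodes a secreted protein of the extracellular matrix that binds collagens and integrins and takes its name from its induction by TGF-beta. It lies at chr13:56609523-56639562 on the plus strand. Its normalized counts were 174, 195, 223 and 168 in WT and 422, 449, 459 and 797 in *mdx5cv*. No muscle of one group reached the other, the first 3 *mdx5cv* muscles were close together, and replicate 4 was 1.80 times their mean. *Tgfbi* rose from 190 ± 24.9 to 532 ± 177 (SD, n = 4), with a log2 fold change of 1.44 (SE 0.18, 95% interval 1.04 to 1.83, adjusted p = 5.58e-05). Without *mdx5cv* replicate 4 the log2 fold change was 1.22.

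**Figure D3:**
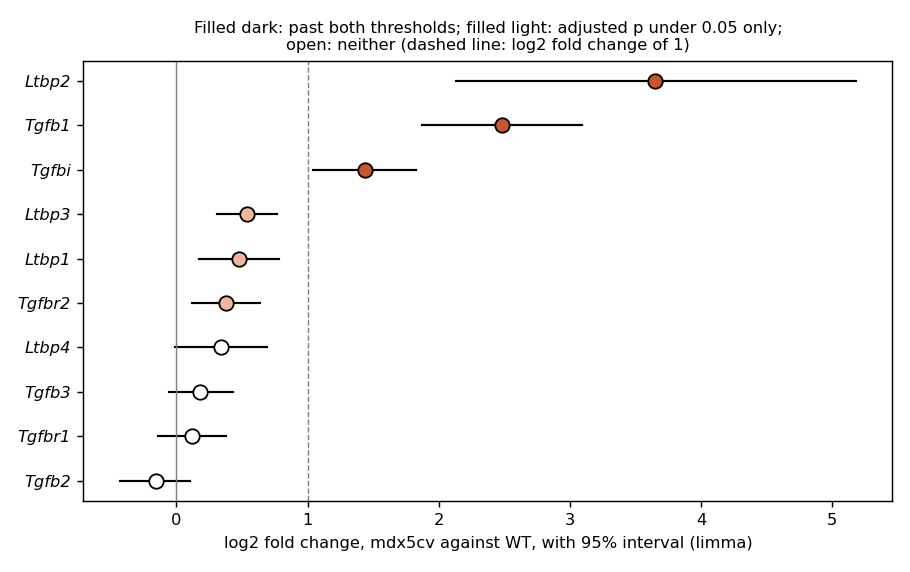
Log2 fold changes of the 10 genes in *mdx5cv* against WT TA muscles (x axis) with 95% intervals from limma, ordered by size; the dashed line marks a log2 fold change of 1. *Ltbp2* (3.65), *Tgfb1* (2.48) and *Tgfbi* (1.44) lie past it, and the intervals of *Tgfb2*, *Tgfb3*, *Tgfbr1* and *Ltbp4* include 0.

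Per kilobase of exon, the order of the 10 transcripts in WT was *Tgfb3* (98.7), *Ltbp4* (94.2), *Tgfbr1* (70.8), *Tgfbr2* (62.4), *Tgfbi* (50.5), *Ltbp3* (44.3), *Tgfb2* (41.9), *Ltbp1* (23.7), *Tgfb1* (5.20) and *Ltbp2* (1.06). The ranges of the 4 WT muscles overlapped between *Tgfb3* and *Ltbp4*, *Ltbp4* and *Tgfbr1*, *Tgfbi* and *Ltbp3*, and *Ltbp3* and *Tgfb2*, and the other neighbors were apart. In *mdx5cv* the order per kilobase began with *Tgfbi* (141), *Ltbp4* (118) and *Tgfb3* (112), and *Ltbp1* (33.7), *Tgfb1* (29.4) and *Ltbp2* (11.5) stayed last. Ranges of neighbors overlapped in this order except between *Tgfb3* and *Tgfbr2* (82.0) and between *Ltbp3* (64.6) and *Tgfb2* (37.3). By its mean per kilobase of merged exons *Tgfb1* was the lowest ligand in *mdx5cv* too, but its range overlapped that of *Tgfb2*. In replicate 4 the share of *Tgfb1* in the ligand sum (22.3%) was above that of *Tgfb2* (17.4%). The order of different genes depends on the exon lengths used.

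The 3 genes that changed the most were compared with the tested genes whose normalized counts averaged 100 or more, by the root mean square difference of the log2 deviations from the WT mean over the 8 muscles. The nearest to *Tgfb1* were *Csf1r* (difference 0.20), the receptor of macrophage colony-stimulating factor, *Ucp2* (0.24), a mitochondrial carrier, and *Syk* (0.25), a kinase of immune receptor signaling. In *mdx5cv* replicates 1 to 4, *Tgfb1* deviated by 2.34, 2.33, 2.13 and 3.12 and *Csf1r* by 2.53, 2.35, 1.98 and 3.39. The nearest to *Tgfbi* were *Itga5* (0.14), the integrin alpha 5 subunit, *Nfkb2* (0.17), an NF-kappa-B subunit, and *Vsir* (0.17), an immune checkpoint receptor. The nearest to *Ltbp2* were more distant, namely *Cotl1* (0.77), an actin-binding protein, the chemokine *Ccl6* (0.78) and *Cd68* (0.80), a lysosomal glycoprotein of macrophages. In WT replicate 1, where *Ltbp2* had no read, it deviated by -2.73, against -1.05, -1.05 and -1.04 for these genes. That gap adds to their distance. The deviations over the 8 muscles hold the genotype difference itself, so the likeness is a description of these muscles.

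**Figure D4:**
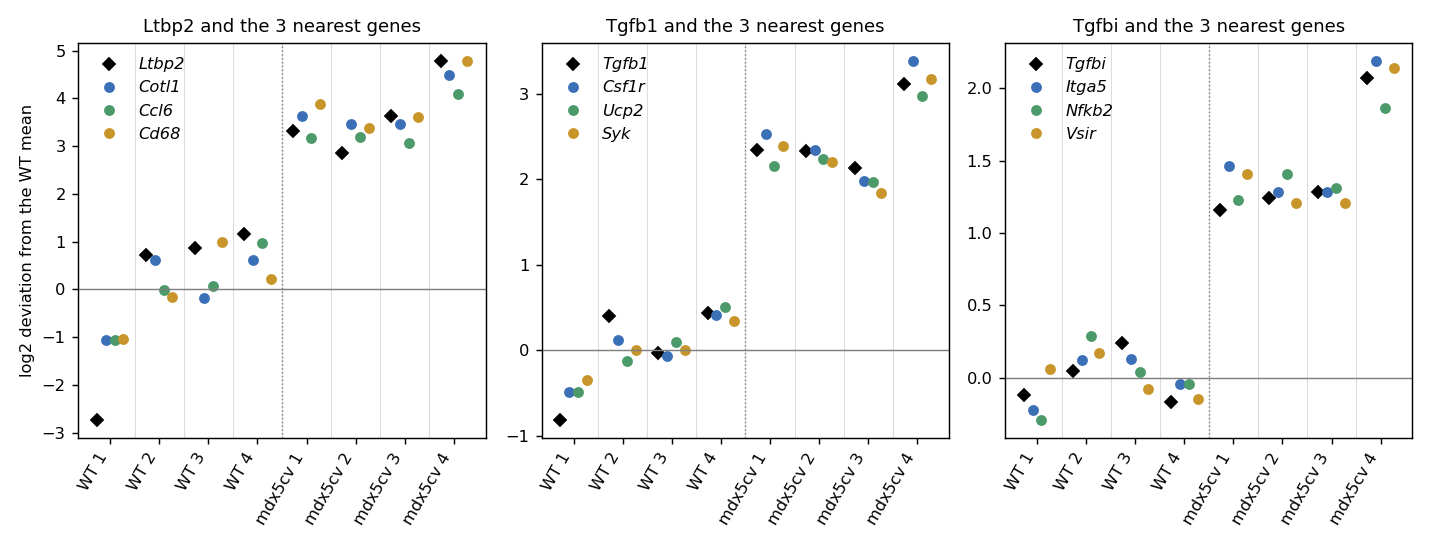
Log2 deviation from the WT mean (y axis) in each of the 8 muscles for *Ltbp2*, *Tgfb1* and *Tgfbi* (black diamonds) and the 3 genes nearest to each (circles), offset sideways for legibility. In each panel the *mdx5cv* muscles lie above the WT muscles and replicate 4 is the highest, at 4.79 for *Ltbp2*, 3.12 for *Tgfb1* and 2.07 for *Tgfbi*.

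Sums of cell type markers moved in different directions between the groups, and some overlapped. The 9 macrophage markers listed were 9 of 9 higher past the stricter threshold, with a median log2 fold change of 3.15, and none was at 0. In WT, *Itgam* (3.88) and *Cd14* (6.95) averaged under the minimum for testing. *Csf1r*, at a difference of 0.20 from *Tgfb1*, and *Cd68*, at the larger difference of 0.80 from *Ltbp2*, belong to that list. The sums of 9 fibroblast markers overlapped, at 3169 to 6888 in WT and 4031 to 5337 in *mdx5cv*, and *Dcn* made up most of the sum (mean 3090 and 2488). Of the 9, *Lum*, *Mfap5*, *Pdgfra* and *Dpt* rose and 0 fell, and *Lum* and *Mfap5* were past the stricter threshold. *Lum*, *Mfap5* and *Dcn* are also in the pathway lists. Sums of 5 tenocyte markers overlapped too, at 614 to 1453 and 1190 to 1673. Endothelial markers summed to 4224 to 4928 in WT and 2401 to 3012 in *mdx5cv*, where 6 of 7 fell, and 1 of them, *Flt1*, was past the stricter threshold. *Flt1* lost that threshold with edgeR, with equal totals and with mitochondrial genes also left out. It also lost it without WT replicate 3 and without *mdx5cv* replicate 1 or 4. The endothelial median log2 fold change was -0.73, and -0.38 with equal totals. Markers of smooth muscle and pericytes summed to 6268 to 7583 and 4473 to 5063, a sum made up mostly of *Rgs5* (mean 4696 and 2565). Of the 5 tested, *Rgs5* and *Myh11* fell and *Cspg4* and *Pdgfrb* rose, with a median log2 fold change of -0.07. Platelet and megakaryocyte markers summed to at most 34.4 in WT and to 62.3 to 153 in *mdx5cv*, and *Gp1bb* was at 0 in WT. Most of that difference was *Pf4* (mean 15.7 and 67.1), which rose, whereas *Itga2b* did not pass the test and the other 3 were under the minimum for testing.

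The 7 markers of regenerating fibers all rose, with sums of 244 to 366 in WT and 2519 to 9132 in *mdx5cv*, and *Mymx* was at 0 in WT. *Mymk*, *Mymx* and *Chrng* met the minimum for testing only through the *mdx5cv* muscles. Of 8 mature fast fiber markers 4 fell, *Ckm*, *Tnnt3*, *Tnni2* and *Actn3*, and 0 rose, while the sums overlapped between the groups. Their median log2 fold change was -0.39, and -0.03 with equal totals. T lymphocyte markers stayed under the minimum for testing, with sums of 4.58 to 6.58 and 25.0 to 53.5, and *Cd3e* and *Cd8a* were at 0 in WT. The part of these cell types in the changes of *Tgfb1*, *Tgfbi*, *Ltbp2* and the other genes was not tested.

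Other genes of the pathway were taken from 5 lists of 66 genes, of which 64 met the minimum for testing. In all 35 rose and 7 fell, where the shares over all genes tested were 20.9% and 20.1%. Past the stricter threshold 26 were higher and 0 lower, where the shares over all genes tested were 10.3% and 3.27%. Of these, *Mfap2*, *Mfap4*, *Smad9*, *Timp1* and *Cthrc1* averaged under 10 in WT and met the minimum only through the *mdx5cv* muscles. With a count of at least 10 required in every muscle, 21 were higher. The median log2 fold change of the 64 genes was 0.63. The lists were drawn up with results of these data known and include genes of the matrix and of macrophages, so their direction is not independent evidence.

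**Figure D5:**
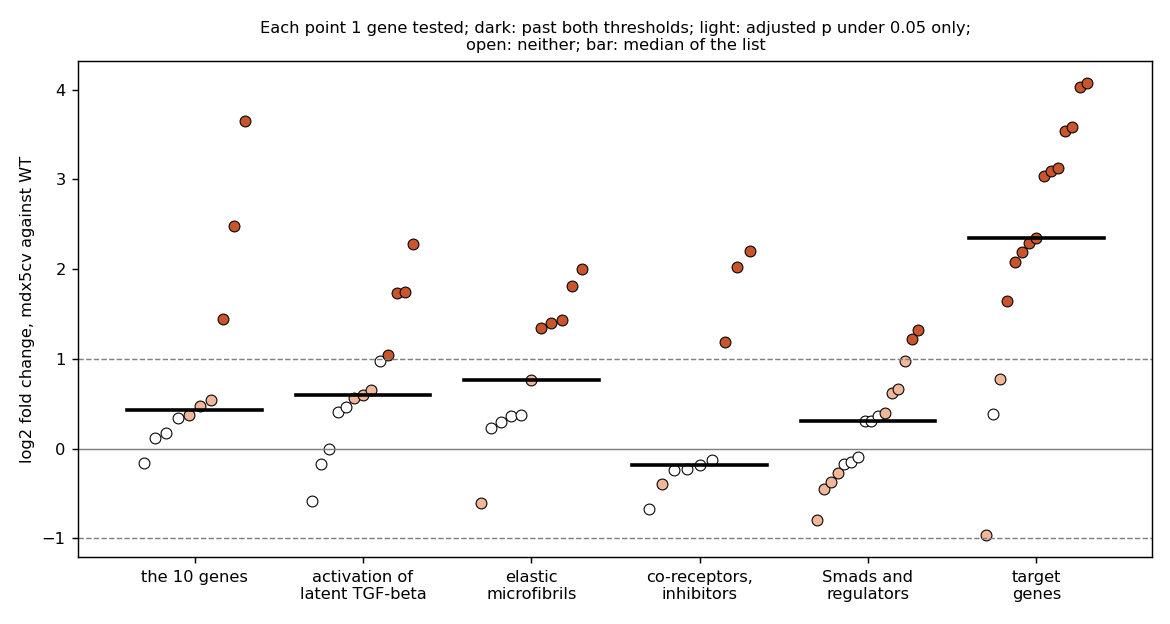
Log2 fold changes in *mdx5cv* against WT (y axis) for the 10 genes and for each tested gene of the 5 pathway lists, with a bar at the median of each; dark points passed both thresholds, light points passed the adjusted p only, and open points passed neither. The target genes have the highest median, 2.35, and the co-receptors and inhibitors the lowest, -0.18, which turns to 0.18 with equal totals.

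Among 14 genes that activate or anchor latent TGF-beta, 13 were tested, 7 rose and 0 fell, with a median log2 fold change of 0.60. Past the stricter threshold were 4, and 3 without *mdx5cv* replicate 4. *Mmp14*, a membrane-bound metalloproteinase, had normalized counts of 76.8, 91.0, 68.6 and 92.2 in WT and 428, 274, 363 and 598 in *mdx5cv*. The groups were far apart, and *Mmp14* rose by a log2 fold change of 2.28 (SE 0.20, adjusted p = 4.61e-06). *Nrros*, which anchors latent TGF-beta 1 on macrophages and microglia, rose by 1.75 on the log2 scale (adjusted p = 7.86e-05), from 48.1 ± 4.85 to 173 ± 72.4 normalized counts (SD, n = 4). *Thbs1*, encoding the activator thrombospondin 1, rose by 1.73 on the log2 scale (adjusted p = 1.32e-04), and replicate 4 (728) was the highest *mdx5cv* muscle against 302 to 350 in the others. The integrin subunits *Itgav* (0.65) and *Itgb1* (0.60) rose as well. The log2 fold changes of *Itgb3* (0.46), *Itgb5* (-0.17), *Itgb6* (0.00) and *Itgb8* (-0.58) did not pass the test. For *Itgb8* the adjusted p was 0.0515, and every *mdx5cv* muscle was below every WT muscle. These integrins were named after their values were seen. *Plg* was under the minimum for testing.

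Among 12 proteins of elastic microfibrils, to which the latent binding proteins attach, 11 were tested, 6 rose and 1 fell, with a median log2 fold change of 0.77. Past the stricter threshold were 5, also without *mdx5cv* replicate 4. *Fbn1*, encoding the main microfibril protein fibrillin 1, had normalized counts of 627, 790, 457 and 971 in WT and 1683, 1255, 1765 and 2496 in *mdx5cv*. No overlap was seen, and *Fbn1* rose by a log2 fold change of 1.35 (SE 0.22, adjusted p = 4.36e-04). The microfibril-associated *Mfap4* rose from 9.95 to 44.4 normalized counts (adjusted p = 3.07e-04) and *Mfap2* from 7.96 to 22.4 (adjusted p = 0.00371), each a mean of 4 muscles. *Emilin1*, an elastin interface protein that binds the TGF-beta precursor, rose by 1.81 (adjusted p = 8.58e-05). *Fbln5*, encoding the elastic fiber protein fibulin 5 and named after its value was seen, fell with a log2 fold change of -0.60 (adjusted p = 0.00515). That call was lost with equal totals (-0.24, adjusted p = 0.237) and with mitochondrial genes also left out (-0.39, adjusted p = 0.0705).

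Among 9 co-receptors and extracellular inhibitors, 3 rose and 1 fell, with a median log2 fold change of -0.18. The median was 0.18 with equal totals and 0.03 with mitochondrial genes also left out, where the medians of the genes tested were 0.36 and 0.22. The 3 that rose were also past the stricter threshold. *Bgn*, encoding the proteoglycan biglycan, had normalized counts of 297, 292, 305 and 344 in WT and 1305, 1059, 1273 and 2343 in *mdx5cv*, a log2 fold change of 2.20 (SE 0.19, adjusted p = 4.01e-06). Every *mdx5cv* muscle was well above the WT muscles. *Cd109*, a co-receptor that inhibits TGF-beta signaling, rose by 2.03 on the log2 scale (adjusted p = 8.47e-04), and the proteoglycan *Lum* by 1.19 (adjusted p = 0.00102). *Tgfbr3*, encoding betaglycan, had normalized counts of 518, 542, 503 and 415 in WT and 367, 399, 351 and 387 in *mdx5cv*. The groups did not overlap and *Tgfbr3* fell, with a log2 fold change of -0.39 (SE 0.11, adjusted p = 0.0123). With each muscle scaled to the same total its log2 fold change was -0.03, and the call was lost under this scaling and with mitochondrial genes also left out. Over the alternatives its adjusted p ran from 0.00370 to 0.846.

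Among 16 Smad proteins and Smad regulators, 6 rose and 4 fell, with a median log2 fold change of 0.31, and 2 were higher past the stricter threshold, a share near the 10.3% of all genes tested. *Smad2* and *Smad3*, the Smads phosphorylated by the receptor, did not pass the test, with log2 fold changes of -0.15 (adjusted p = 0.335) and -0.17 (adjusted p = 0.350). They became 0.21 and 0.19 with equal totals. *Smad4*, the partner of the receptor-regulated Smads, had normalized counts of 715, 773, 770 and 776 in WT and 583, 587, 563 and 490 in *mdx5cv*. All *mdx5cv* muscles were below the WT muscles, and *Smad4* fell with a log2 fold change of -0.45 (SE 0.10, adjusted p = 0.00252). With equal totals its log2 fold change was -0.09, the call was lost under the same pair of scalings, and the adjusted p ran from 8.53e-05 to 0.506 over the alternatives. The inhibitory *Smad7*, itself a target of the pathway, had normalized counts of 140, 113, 161 and 135 in WT and 256, 195, 211 and 182 in *mdx5cv*. It rose without overlap, with a log2 fold change of 0.62 (SE 0.15, adjusted p = 0.00440).

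The regulator genes past the stricter threshold were *Tgif1*, a repressor of Smad-dependent transcription, and *Smad9*, a Smad of the BMP branch. *Tgif1* rose by 1.32 on the log2 scale (adjusted p = 3.18e-04). *Smad9* rose by 1.22 (adjusted p = 0.0166) from a low level of 8.83 ± 2.49 normalized counts (SD, n = 4), and the call was lost without *mdx5cv* replicate 2 (adjusted p = 0.0617, the highest over the alternatives, the lowest being 0.00355). Besides *Smad4*, the genes that fell were *Ppm1a* (-0.80), a phosphatase that acts on Smads, *Zfyve9* (-0.37), an anchor for Smads at the receptor, and *Smurf2* (-0.27), a ubiquitin ligase. They were named after their values were seen, and with equal totals *Ppm1a* kept an adjusted p under 0.05 (0.00295), whereas *Zfyve9* (0.930) and *Smurf2* (0.574) did not.

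Among 15 known target genes of TGF-beta, 13 rose and 1 fell, with a median log2 fold change of 2.35, and 12 were higher past the stricter threshold. *Postn*, encoding the matricellular protein periostin, had normalized counts of 79.1, 133, 82.9 and 57.2 in WT and 1662, 715, 1249 and 2779 in *mdx5cv*. The groups were far apart, and *Postn* rose by a log2 fold change of 4.07 (SE 0.33, adjusted p = 2.61e-06). *Timp1*, an inhibitor of metalloproteinases, rose by 4.03 on the log2 scale (adjusted p = 6.47e-06) from 7 reads or fewer in each WT muscle. *Cthrc1*, a secreted protein of matrix-producing fibroblasts, had at most 2 reads in each WT muscle and 7.55 to 30.4 normalized counts in *mdx5cv*, with an adjusted p of 3.43e-04.

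*Ccn2*, encoding connective tissue growth factor and often used as a readout of the pathway, had normalized counts of 89.4, 106, 163 and 92.2 in WT and 115, 167, 145 and 152 in *mdx5cv*. The groups overlapped, and the log2 fold change of *Ccn2* was 0.39 (95% interval -0.02 to 0.80, adjusted p = 0.120). *Ccn2* passed the test with equal totals (0.74, adjusted p = 0.00884), with mitochondrial genes also left out (0.60, adjusted p = 0.0306) and without WT replicate 3 (0.58, adjusted p = 0.0167), and its adjusted p was at most 0.287 over the alternatives. The target that fell was *Tagln*, a smooth muscle protein named after its value was seen, with a log2 fold change of -0.96 (adjusted p = 0.00157). Without *mdx5cv* replicate 4 it was -1.08.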

How the data were processed

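RNA of 4 WT and 4 *mdx5cv* TA muscles was compared, with groups taken from the genotype labels. The authors deposited 1 table of all genes whose signal is the normalized count, that is the reads of a gene after division by the size factor of its library. The submitters' processing notes name FastQC, Trim Galore 0.6.4, STAR 2.6.0c, SAMtools 1.9, featureCounts, MultiQC 1.6, DESeq2 1.26.0, R 3.6.2 and the mm10 genome. The annotation and the strand setting of the counting are not given in the sources used here, so genes that overlap on opposite strands are uncertain. Size factors were 0.873 to 0.944 in WT and 1.06 to 1.25 in *mdx5cv*. Dividing by the value of 1 read gave whole reads for 100% of values (tolerance 0.001 of a read), and recovered reads per muscle were 13175524 to 14921057. Replicates differed beyond counting noise (chi-square per degree of freedom 9.05 to 41.3), so none was a copy of another.

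Genes whose normalized counts averaged at least 10 were tested in R 4.3.3 with limma 3.58.1 (lmFit, eBayes with a variance trend, two-sided) on log2(normalized count + 1). This scale can understate or overstate the change of low genes. P-values were adjusted by Benjamini-Hochberg over the 13677 genes. Alternatives were edgeR 4.0.16 (quasi-likelihood) and DESeq2 1.42.0 on the recovered reads, pseudocounts of 0.1 and 10, other filters, other scalings, a fit that blocks on the replicate number, no variance trend, each muscle left out and other fold thresholds. The edgeR and DESeq2 tests used counts recovered from the deposited values, not counts as deposited. Loci and exon lengths were read from GENCODE M21 (GRCm38), which holds the IDs of 55141 of the 55401 genes.

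The genes and lists were chosen with earlier results of these data known. Named are the 10 genes, *Dmd*, of each pathway list the 3 with the largest absolute log2 fold change past the threshold, *Tgfbr3*, *Smad2*, *Smad3*, *Smad4*, *Smad7*, *Ccn2*, *Fbn1* and *Thbs1* whatever their value, and the 3 genes nearest to each of the 3 members with the largest change. A listed gene is not reported here and was left out of its list. Other names are said to be chosen after their values were seen, apart from single cell type markers, which were also chosen so. Other steps were run in Python 3.11.15 (pandas 2.3.3, numpy 2.4.6, scipy 1.17.1, figures with matplotlib 3.10.9).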

Additional observations from a re-analysis of the deposited data

Results flagged for a closer look

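In 80 sets of 4 muscles, made of each gene named by rule and each marker list in each genotype, 5 held a muscle that lay farther from the others than Dixon's 95% limit for 4 values allows, where chance would give about 4. Of the 5, 3 concerned *mdx5cv* replicate 4. On the log2 scale of normalized counts, *Tgfbi* was 9.64 in that muscle against 8.73 to 8.85 in the other *mdx5cv* muscles. *Thbs1* was 9.51 there against 8.24 to 8.46, and the summed platelet and megakaryocyte markers were 7.26 against 5.98 to 6.14. The other 2 concerned WT replicate 1, which was the lowest of its group. *Ltbp2* was at 0.00 there, with no read, against 3.44 to 3.88 in the other WT muscles, and *Smad4* was 9.48 against 9.59 to 9.60.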

How the results depend on the processing

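Relative to the size factors of the authors, scaling to equal totals moved the median log2 fold change of the genes tested to 0.36, and to 0.22 with mitochondrial genes left out. It raised the share of higher genes among those past the threshold from 76.0% to 92.0% and 87.1%. Under these scalings *Tgfb2* (0.19 and 0.05), *Smad2* (0.21 and 0.06) and *Smad3* (0.19 and 0.05) turned positive, and 9 and 8 of the 10 genes rose in place of 6. Of the 10 genes 3 were past the threshold under each alternative except a minimum of 10 in each single muscle, which left *Ltbp2* untested and gave 2, and the thresholds on fold, which gave 6 with no minimum fold and 2 with a log2 fold change of at least 2. Over all genes, 1414 were higher and 447 lower. Higher genes numbered 2329 with equal totals, 2202 with no filter, 729 with a count of at least 10 in every muscle, 2854 with no minimum fold and 600 with a log2 fold change of at least 2. Lower genes numbered 202 with equal totals, 276 with these and no mitochondrial genes, 275 with a count of at least 10 in every muscle, 2743 with no minimum fold and 85 at the higher fold. Of the pathway genes, 14 were higher at the higher fold and 7 lower with no minimum fold, against 26 and 0. Leaving out 1 muscle gave 0 to 1 lower, with 1 when WT replicate 1 or 3 or *mdx5cv* replicate 4 was left out. The fold thresholds change the counts by construction, and the cause of the other changes was not tested. Among single genes, *Mfap2*, *Lum*, *Smad9* and the endothelial marker *Flt1* lost the threshold under some alternatives. Correlations of same-numbered deviations were weak, at 0.05, 0.03, 0.07 and 0.15, and not every muscle correlated best with its own number. Whether replicate numbers pair the muscles was not tested, and weak correlations cannot exclude it. The fit with the replicate block gave 3 of the 10 genes past the threshold and 6 that rose, as without the block. The 12 to 32 reads of *Tgfb1* and 0 to 13 of *Ltbp2* in WT limit the precision of their folds.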
